A study of Rattus norvegicus with 36 samples.

Results

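Cholesterol and fatty acid synthesis genes form the set described here. It lists 35 rat genes by symbol: 23 of the sterol arm, which are its enzymes, its regulators and a sterol carrier, and 12 of the fatty acid arm. Members were taken by their symbols, and the set was proposed with earlier results of these data known. Of the 35 genes, 28 matched a transcript cluster that carries 1 gene symbol, among 18901 clusters and 13206 symbols in all. These were 19 of the 23 sterol genes and 9 of the 12 fatty acid genes, each with 1 cluster. Hmgcs1, Mvk, Fdps, Stard4, Fasn, Elovl1 and Elovl7 are not analysed here.

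RNA was measured on Affymetrix rat exon arrays in CG-4 cells, a rat line of oligodendrocyte progenitors, with 3 arrays per group that the labels call biological replicates. The 6 groups were cells with a small interfering RNA (siRNA) against QKI, cells with a siRNA against hnRNP A1, cells with a non-silencing siRNA, a stable line with a short hairpin RNA (shRNA) against QKI, a stable line with a non-silencing shRNA, and untreated cells. QKI binds RNA and is required for normal myelin, and hnRNP A1 controls the choice of splice sites in many transcripts. All groups grew in 30% medium conditioned by B104 cells, and the labels give transfection with lipofectamine 2000 for all of them, although they describe the untreated cells as untransfected. The times after transfection were not given in the sources used here. Each shRNA is represented by 1 stable line, so that the shRNA and the history of its line cannot be told apart. Nothing says that the 3 arrays of a group came from separate cultures, and p-values measure the spread between these arrays only. Values are the authors' RMA log2 intensities, so a difference of 1 is a 2-fold difference in linear intensity.

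Cells make cholesterol from acetyl-CoA by way of mevalonate, squalene and lanosterol, and fatty acids from the same precursor by way of malonyl-CoA. When sterols are scarce, SCAP escorts the SREBP transcription factors, products of Srebf1 and Srebf2, out of the endoplasmic reticulum, and their cleaved forms switch on most genes of both arms. INSIG proteins hold SCAP back when sterols are plentiful. Oligodendrocytes make large amounts of cholesterol and fatty acids for myelin, and depend on their own synthesis to do so.

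Promoters of 4 sterol members are shown here because these genes carry the results below. Tm7sf2, Mvd and Ebp were called in both comparisons of the non-silencing shRNA line, as was Pmvk, for which no sequence was found. Insig1, a classical SREBP target, had the lowest p of the sterol arm in the comparison of QKI siRNA. RefSeq sequences of the build GRCr8 were found for 23 of the 28 measured members, 16 of the sterol and 7 of the fatty acid arm. Each stretch holds the 250 bases before the transcript start, from 5′ to 3′ along the gene. They lie at chr1:212789542-212789791, minus strand for Tm7sf2, at chr19:67414975-67415224, minus strand for Mvd, at chrX:16971212-16971461, plus strand for Ebp and at chr4:8057770-8058019, minus strand for Insig1. Capitals mark CCAAT, the motif of the factor NF-Y, and GGGCGG, the motif of Sp1, on either strand, so that they may read ATTGG or CCGCCC.
Tm7sf2: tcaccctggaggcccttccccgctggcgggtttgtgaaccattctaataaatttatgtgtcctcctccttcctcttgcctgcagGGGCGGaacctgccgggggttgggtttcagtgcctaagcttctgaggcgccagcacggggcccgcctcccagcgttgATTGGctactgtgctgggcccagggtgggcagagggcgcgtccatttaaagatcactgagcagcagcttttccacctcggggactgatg
Mvd: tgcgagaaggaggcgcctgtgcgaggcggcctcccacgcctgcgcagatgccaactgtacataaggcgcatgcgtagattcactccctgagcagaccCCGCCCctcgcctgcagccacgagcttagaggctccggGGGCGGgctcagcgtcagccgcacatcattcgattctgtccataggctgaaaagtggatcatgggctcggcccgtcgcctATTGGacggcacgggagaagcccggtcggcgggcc
Ebp: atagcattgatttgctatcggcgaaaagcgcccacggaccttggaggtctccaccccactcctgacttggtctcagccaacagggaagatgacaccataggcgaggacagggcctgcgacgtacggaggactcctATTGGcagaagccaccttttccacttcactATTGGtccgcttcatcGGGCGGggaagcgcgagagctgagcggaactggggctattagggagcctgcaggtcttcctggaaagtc
Insig1: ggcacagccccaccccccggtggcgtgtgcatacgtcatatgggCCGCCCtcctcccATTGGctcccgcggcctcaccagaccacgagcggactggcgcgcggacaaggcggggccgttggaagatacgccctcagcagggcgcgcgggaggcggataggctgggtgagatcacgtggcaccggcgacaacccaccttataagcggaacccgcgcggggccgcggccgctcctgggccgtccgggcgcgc
All 4 stretches hold both motifs, whereas those of Acat2 and Dhcr7, also called between the stable lines, hold GGGCGG but no CCAAT. NF-Y and Sp1 are known to act beside SREBPs at sterol genes.

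Shares were counted by gene, and a gene counted when any of its promoter stretches of this length held the motif. Over all members with a sequence, CCAAT was found for 12 of 16 sterol genes (75%) and for 4 of 7 fatty acid genes, against 36.1% of 27457 rat genes. GGGCGG was found for 14 of 16 sterol genes (87.5%) and for 5 of 7 fatty acid genes, against 33.5% of all. Among genes of the 4726 brightest clusters, these shares were 38.2% for CCAAT and 64.4% for GGGCGG. The E-box CACGTG was found for 3 of 16 and 1 of 7 member genes and for 6.18% of all. TCACNCCAC, a core of the sterol regulatory element, was found for 0 of the 23 member genes and for 1.09% of all. Both strands were searched, no match overlapped another in the 4 stretches shown, and a match or its lack says only which letters stand in this window.

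Between arrays, correlations over all clusters ran between 0.938 and 0.991, and for 7 of the 18 the nearest array belonged to another group. QKI shRNA line array 3 stood nearest to untreated array 2 and untreated array 3 nearest to QKI siRNA array 1. For the members, results that rest on QKI shRNA line array 3 or untreated array 3 are given with and without them. No QKI siRNA array stood nearest to another of its group: arrays 1 and 2 stood nearest to hnRNP A1 siRNA array 1, and array 3 to non-silencing siRNA array 3. For hnRNP A1 siRNA, array 1 stood nearest to QKI siRNA array 1 and array 3 to non-silencing siRNA array 2. As a check of the labels, Qki lay at 9.99, 10.02 and 9.67 on the QKI siRNA arrays and at 11.47, 11.39 and 11.14 on those of non-silencing siRNA, which do not overlap (log2 difference -1.44 ± 0.22, adjusted p = 0.179). In the QKI shRNA line it lay at 10.65, 10.35 and 11.14 and in the non-silencing shRNA line at 10.90, 11.01 and 10.99, so that array 3 labelled QKI shRNA lay above all 3 control arrays and the groups overlapped (log2 difference -0.25 ± 0.22, adjusted p = 0.656). The transcript was thus not called lower in that line, and the groups are named here by their labels. Against untreated cells, at 11.85, 11.63 and 10.84, the line differed by -0.73 ± 0.22 (adjusted p = 0.133). Hnrnpa1 lay at 7.90, 7.85 and 7.65 after its siRNA and at 8.60, 8.47 and 8.44 after non-silencing siRNA (log2 difference -0.70 ± 0.19, adjusted p = 0.393). Among lineage markers Olig1, Sox10, Nkx2-2 and Ptprz1 had mean log2 intensities of 8.79 to 11.0 over the 18 arrays, Cspg4 only 3.67, and the 7 microglial markers 3.33 to 3.71.

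The extremes of the sterol arm were both control groups: it stood highest in the non-silencing shRNA line and lowest after non-silencing siRNA. The groups with a siRNA or shRNA against QKI or hnRNP A1 lay between them, as untreated cells did. To set the arrays side by side, each member was centred on its mean over the 18 arrays and the members of an arm were averaged on each array, with arrays named in the order of their numbers. The sterol arm lay at 0.18, -0.12 and -0.35 after QKI siRNA, at 0.02, -0.12 and 0.04 after hnRNP A1 siRNA and at -0.46, -0.51 and -0.56 after non-silencing siRNA. It lay at 0.28, 0.12 and -0.60 in the QKI shRNA line, at 0.16, 0.99 and 1.07 in the non-silencing shRNA line and at -0.15, -0.10 and 0.10 in untreated cells. Arrays 2 and 3 of the non-silencing shRNA line lay above the other 16 arrays, while its array 1 lay among those of other groups. QKI shRNA line array 3 was the lowest of the 18, and the 3 arrays of non-silencing siRNA were the next lowest.

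The fatty acid arm had the same groups at its ends, over a narrower range. It lay at 0.11, -0.20 and -0.35 after QKI siRNA, at 0.02, -0.16 and -0.01 after hnRNP A1 siRNA and at -0.46, -0.29 and -0.33 after non-silencing siRNA. In the QKI shRNA line it lay at 0.34, 0.19 and -0.35, in the non-silencing shRNA line at 0.15, 0.42 and 0.57 and in untreated cells at 0.06, 0.06 and 0.22. In both arms the QKI shRNA line overlapped the non-silencing shRNA line only at array 1 of the control line.

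**Figure D1:**
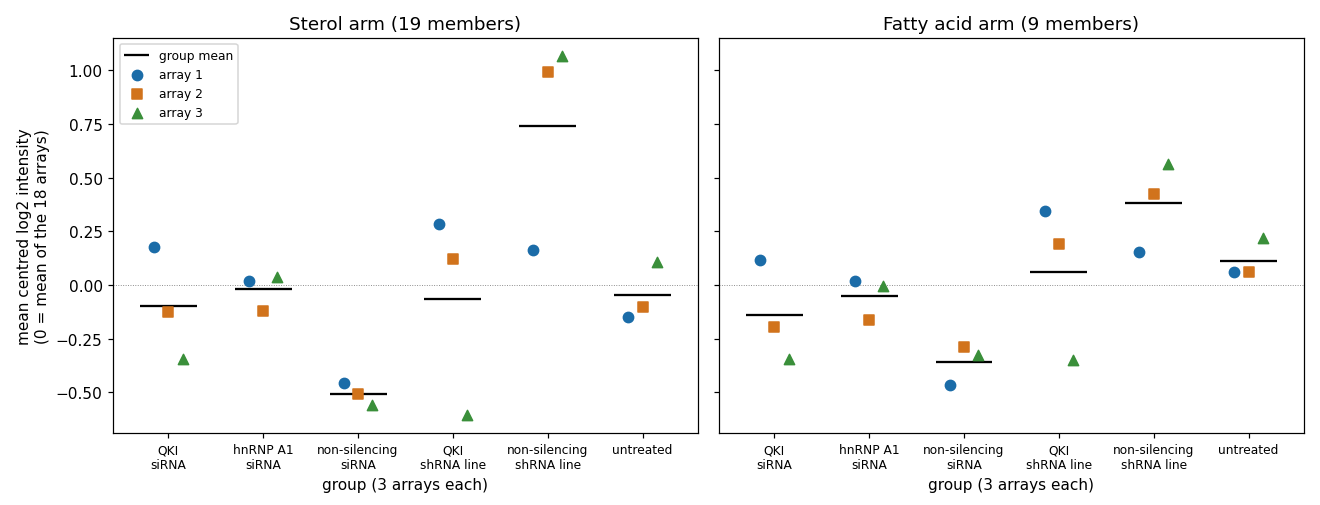
Mean centred log2 intensity of the 19 sterol members (left) and of the 9 fatty acid members (right) on each of the 18 arrays, with 0 at the mean of all arrays, points for arrays and black lines for group means. Arrays 2 and 3 of the non-silencing shRNA line are highest in the sterol arm, at 0.99 and 1.07, and the 3 arrays of non-silencing siRNA lie together at -0.46 to -0.56.

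Other gene groups moved between the same arrays. The mean of 15 proliferation genes lay at 0.62, 0.08 and -1.15 after QKI siRNA, at 0.26, -0.44 and -0.95 after hnRNP A1 siRNA and at -1.19, -0.76 and -0.69 after non-silencing siRNA. It lay at 1.09, 0.98 and -0.28 in the QKI shRNA line, at 0.93, -0.04 and -0.09 in the non-silencing shRNA line and at 0.19, 0.09 and 1.33 in untreated cells. Non-silencing siRNA was low on all 3 arrays, as it was for the sterol arm, whereas array 1 of the non-silencing shRNA line lay below the other 2 arrays of its line for sterol genes and above them for proliferation genes.
For 18 stress response genes the mean was -0.18, -0.18 and -1.04 in the QKI shRNA line and -0.19, -0.01 and 0.03 in the non-silencing shRNA line, so that array 3 of the QKI shRNA line was low here too. It was 0.71, 0.35 and 0.23 after QKI siRNA, 0.56, 0.39 and 0.44 after hnRNP A1 siRNA and 0.03, 0.16 and 0.17 after non-silencing siRNA. The siRNAs against QKI and hnRNP A1 both lay above non-silencing siRNA, their shared control, without overlap. In untreated cells the mean was -0.62, -0.60 and -0.26. The mean of 7 markers of myelinating oligodendrocytes was -0.90, -0.94 and -0.89 in the QKI shRNA line and -0.19, 0.38 and 0.40 in the non-silencing shRNA line, with no overlap. Of these 7 markers 2 fell there and 0 rose, where 6.9% of all clusters were called lower and 3.38% higher. Of the markers 3 lay below 0 and 4 above it, and their median difference was 0.07. The 3 below 0 were Mbp, Cnp and Mag, with mean log2 intensities of 7.83, 10.1 and 6.11 over the 18 arrays. Those above 0, Mog, Mobp, Cldn11 and Mal, had means of 4.34, 3.64, 3.43 and 3.86, close to the array medians of 3.77 to 4.18. Little can be read from these 4, and the mean follows the 3 brighter genes. The part of these changes in the results on lipid genes was not tested. In RNA of whole cultures, fewer cells of one state and less RNA per cell cannot be told apart.

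**Figure D2:**
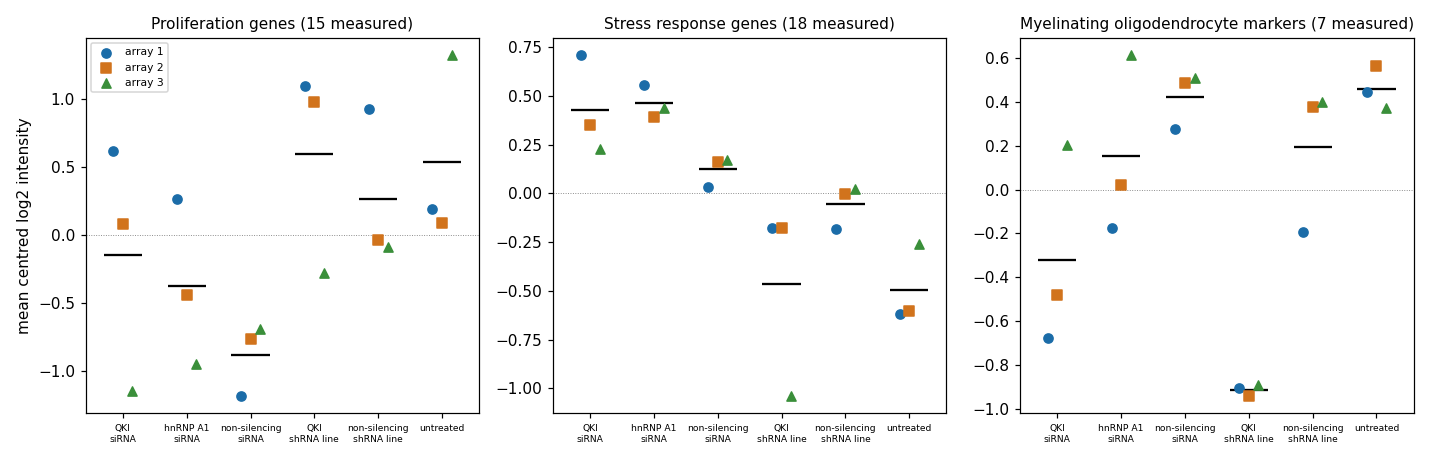
Mean centred log2 intensity of proliferation genes, stress response genes and markers of myelinating oligodendrocytes on each of the 18 arrays, with points for arrays and lines for group means. Non-silencing siRNA lies at -0.69 or below for proliferation genes, and the QKI shRNA line lies at -0.89 or below for the myelin markers.

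By member, the non-silencing shRNA line had the highest group mean for 16 of 19 sterol members and 7 of 9 fatty acid members. Non-silencing siRNA had the lowest for 15 of 19 and 4 of 9. Among the 15 measured enzymes of sterol synthesis these counts were 14 and 13. Arrays 2 and 3 of the non-silencing shRNA line were the 2 highest of the 18 arrays for 13 of 19 sterol members and for 4 of 9 fatty acid members. Among the regulators the group means of Srebf2 spanned only 0.18 and those of Scap 0.35, against 1.34 for Insig1 and 2.89 for Acat2, the enzyme with the widest span. Srebf1 lay between 3.41 and 4.32 on all arrays, close to the array medians of 3.77 to 4.18 over all clusters, so that little can be read from it. Msmo1, an oxidase that strips methyl groups from the sterol ring, was an exception among the enzymes, with its highest mean in the QKI shRNA line. In the fatty acid arm Me1, the malic enzyme that supplies NADPH, was highest in untreated cells, and Acaca, the acetyl-CoA carboxylase, in the QKI shRNA line.

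**Figure D3:**
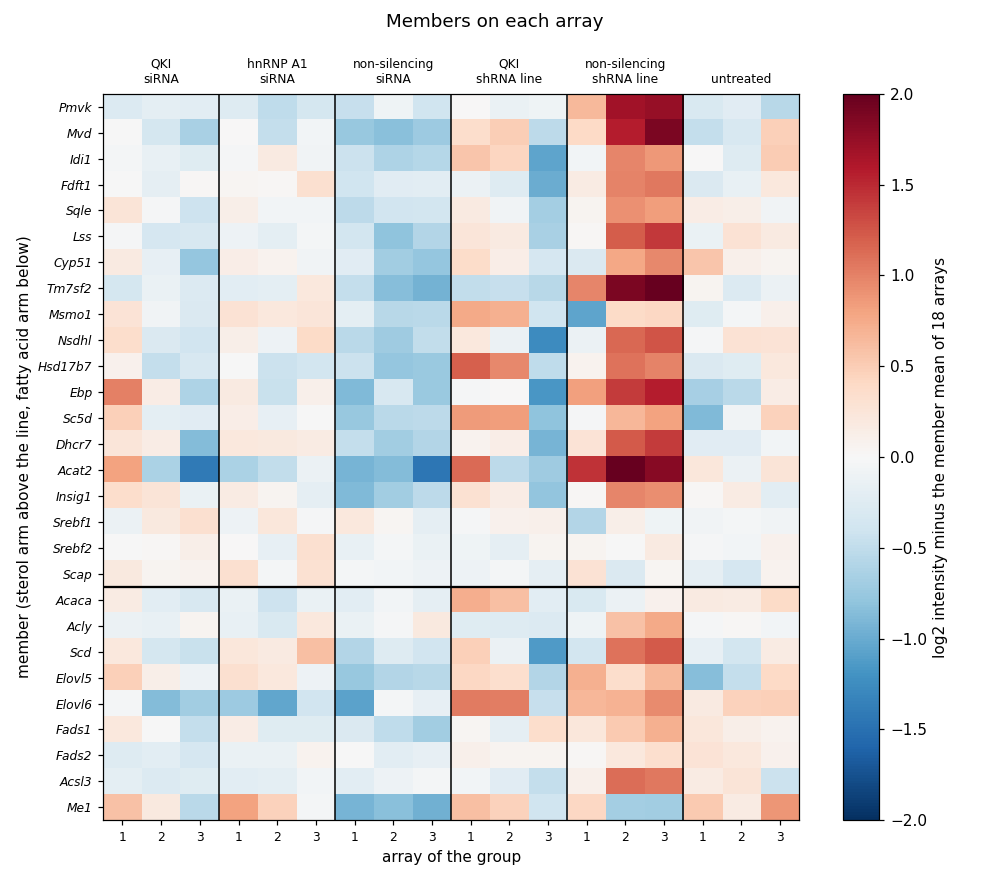
Log2 intensity of each of the 28 measured members on each of the 18 arrays, minus the member's mean over all arrays (colour scale from -2 to 2), with sterol members above the line and fatty acid members below it. Most sterol members are high on arrays 2 and 3 of the non-silencing shRNA line, while Srebf1, Srebf2 and Scap vary little.

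In the stable QKI shRNA line, set against the non-silencing shRNA line, 10 members fell and 0 rose. They were 8 of 19 sterol members and 2 of 9 fatty acid members. The 8 were Acat2, Pmvk and Mvd of the early pathway, the squalene enzymes Fdft1 and Sqle, and Tm7sf2, Ebp and Dhcr7 of the ring steps. Acly and Acsl3 were those of the fatty acid arm. In all, 17 of 19 sterol members lay below the control line, with a median log2 difference of -0.79, against 0.01 over all clusters, and the median of the fatty acid arm was -0.42. A member was called when limma gave a Benjamini-Hochberg adjusted p under 0.05 over all 18901 clusters. Of all clusters, 6.9% were called lower and 3.38% higher. Calls were more frequent among bright clusters, and 26 of the 28 members, all but Srebf1 and Pmvk, were among the 4726 brightest. Of those 4726 clusters 17.6% were called lower, beside 9 of the 26 bright members (34.6%), and their median difference was -0.16. Groups did not overlap, with the QKI shRNA line lower, for 6 sterol and 2 fatty acid members, against 13.5% of all clusters. Among the bright ones this was 7 of 26 members (26.9%) and 28% of clusters, so the members' share was near the background by this measure.

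Tm7sf2, a reductase of the sterol ring, lay at 6.67, 6.70 and 6.60 in the QKI shRNA line, against 8.14, 9.05 and 9.36 in the non-silencing shRNA line. All 3 control arrays were higher than all 3 arrays of the QKI shRNA line, which differed little among themselves. The log2 difference was -2.19 ± 0.23 (adjusted p = 2.4e-05), a level 4.56-fold lower. Pmvk, the phosphomevalonate kinase, lay at 5.64, 5.49 and 5.53 in the QKI shRNA line and at 6.28, 7.30 and 7.36 in the non-silencing shRNA line (log2 difference -1.43 ± 0.21, adjusted p = 0.000434). Here too the groups did not overlap, and array 1 of the control line was its lowest. Ebp, a sterol isomerase, lay at 5.81, 5.83 and 4.66 in the QKI shRNA line, against 6.65, 7.22 and 7.40 in the non-silencing shRNA line (log2 difference -1.66 ± 0.38, adjusted p = 0.00973). Fdft1, the squalene synthase, lay at 10.10, 9.96 and 9.23 in the QKI shRNA line, against 10.39, 11.21 and 11.28 in the non-silencing shRNA line (log2 difference -1.20 ± 0.24, adjusted p = 0.0034). Neither gene had overlapping groups, but for Fdft1 array 1 of both lines lay within 0.3 of each other.

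Acat2, the cytosolic thiolase that makes acetoacetyl-CoA, lay at 8.60, 6.94 and 6.75 in the QKI shRNA line, against 8.91, 9.63 and 9.28 in the non-silencing shRNA line (log2 difference -1.84 ± 0.48, adjusted p = 0.0212). Dhcr7, a reductase of the last step to cholesterol, lay at 8.92, 8.99 and 7.92 in the QKI shRNA line, against 9.14, 10.08 and 10.25 in the non-silencing shRNA line (log2 difference -1.21 ± 0.32, adjusted p = 0.0216). These groups did not overlap either, although the spread within the QKI shRNA line was wide, with array 1 of Acat2 high and array 3 of Dhcr7 low. Sqle, the squalene epoxidase, lay at 10.67, 10.43 and 9.82 in the QKI shRNA line and at 10.55, 11.42 and 11.33 in the non-silencing shRNA line (log2 difference -0.79 ± 0.23, adjusted p = 0.0403). Mvd, the mevalonate diphosphate decarboxylase, lay at 7.93, 8.06 and 7.05 in the QKI shRNA line and at 7.97, 9.15 and 9.46 in the non-silencing shRNA line (log2 difference -1.18 ± 0.35, adjusted p = 0.0408). For both genes array 1 of the control line lay among the arrays of the QKI shRNA line, so that the groups overlapped.

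In the fatty acid arm Acsl3, an acyl-CoA ligase, lay at 10.56, 10.39 and 10.14 in the QKI shRNA line, against 10.72, 11.74 and 11.67 in the non-silencing shRNA line (log2 difference -1.01 ± 0.23, adjusted p = 0.00766). Acly, the ATP citrate lyase that supplies cytosolic acetyl-CoA to both arms, lay at 10.11, 10.11 and 10.08 in the QKI shRNA line, against 10.28, 10.95 and 11.11 in the non-silencing shRNA line (log2 difference -0.68 ± 0.18, adjusted p = 0.022). The groups of both genes stood apart, by the least on array 1 of the control line. Of the members that were not called, Lss, the lanosterol synthase, had -0.96 ± 0.30 (adjusted p = 0.0504) and Nsdhl, a dehydrogenase of the ring steps, -1.16 ± 0.36 (adjusted p = 0.0533). Insig1 had -0.76 ± 0.27 (adjusted p = 0.105), and Scd, the stearoyl-CoA desaturase, -0.91 ± 0.39 (adjusted p = 0.194). On the other side of 0 were Msmo1 at 0.45 ± 0.34, Srebf1 at 0.24 ± 0.17, Acaca at 0.48 ± 0.20 and Me1 at 0.54 ± 0.35, none of them called. Srebf2, at -0.14 ± 0.12, and Scap, at -0.12 ± 0.15, moved by less than 0.2.

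**Figure D4:**
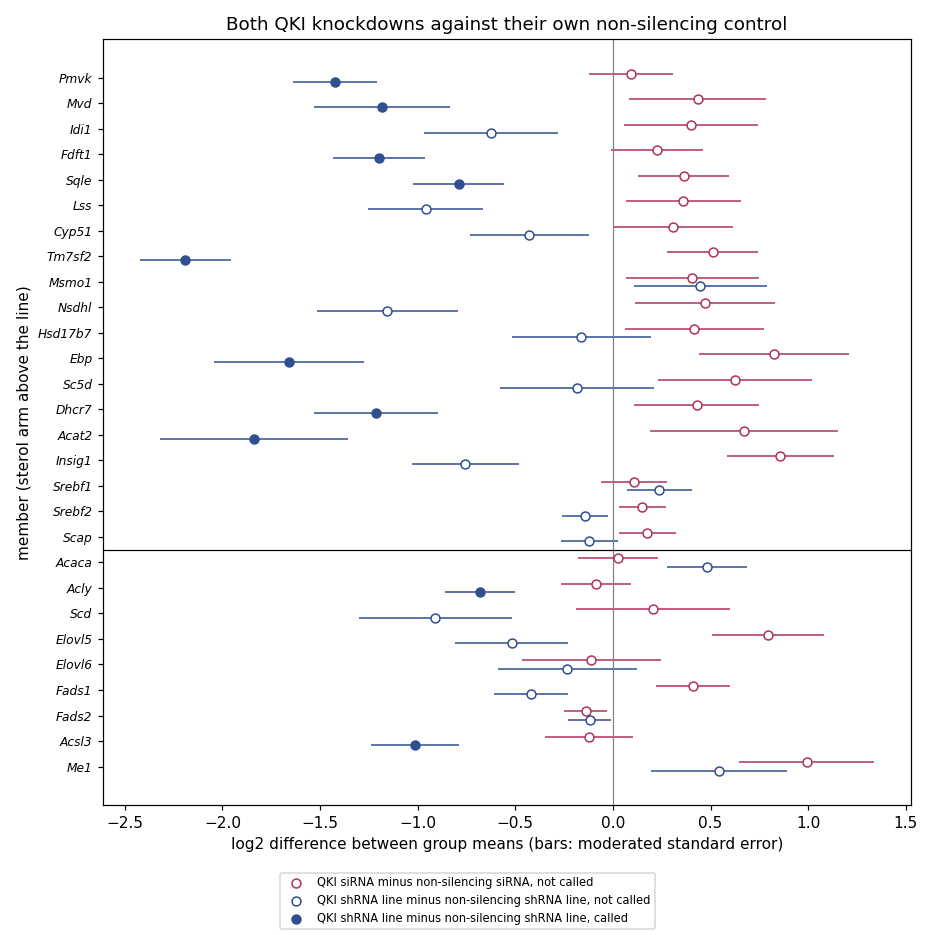
Log2 difference between group means of each member, with the moderated standard error, for QKI siRNA against non-silencing siRNA (red) and the QKI shRNA line against the non-silencing shRNA line (blue), 3 arrays per group, with filled points called at an adjusted p under 0.05. The blue points of 17 sterol members lie left of 0, and the red points of all 19 lie right of it.

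Over all clusters, deviations from the group means correlated at only 0.25, 0.14 and 0.15 between arrays of the stable lines with the same replicate number. These values cannot show that such arrays were handled together, so the pairs by number only describe the arrays. The 3 pairs did not show the same difference. For arrays numbered 1 the sterol members differed by a median of 0.12, with 9 of 19 lower in the QKI shRNA line. For arrays numbered 2 the median was -0.99 with 16 lower, and for arrays numbered 3 it was -1.83 with 18 lower. Tm7sf2 was lower in the QKI shRNA line in each pair, with log2 differences of -1.46, -2.35 and -2.76, and so was Pmvk, with -0.63, -1.81 and -1.83. Mvd differed by -0.04, -1.09 and -2.42 and Sqle by 0.12, -0.99 and -1.51, so that for these called genes pair 1 showed next to no difference or one of opposite sign. In all, 8 of 19 sterol members and 4 of 9 fatty acid members were lower in all 3 pairs.
With the replicate number as a block in the fit of 18 arrays, 9 members were called, and Mvd was not (adjusted p = 0.057). With only the 6 arrays of the stable lines, 3 members were called with the block and 3 without it, Tm7sf2, Pmvk and Ebp in each case. Without QKI shRNA line array 3 and non-silencing shRNA line array 1 together, a choice made after seeing the data, 15 members were called, Acat2 was not (adjusted p = 0.0853), and the medians were -0.82 in the sterol and -0.19 in the fatty acid arm. Without QKI shRNA line array 3 alone 7 members were called, and the median of the fatty acid arm was -0.20. Without non-silencing shRNA line array 2 the count was 5 and without its array 3 it was 4. Tm7sf2 and Pmvk were called in all 30 alternatives run for this comparison.

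The non-silencing shRNA line itself differed from untreated cells, and 4 members rose in it: Pmvk, Tm7sf2, Ebp and Mvd, all of the sterol arm. No member fell. The background was 2.48% of clusters called higher and 0.783% called lower. Among the 4726 brightest clusters 5.86% were called higher, beside 3 of the 26 bright members (11.5%). The sterol median was 0.66 with 17 of 19 members above 0, and the median of the fatty acid arm 0.39 with 7 of 9 above 0. The median of all clusters was 0.06 and that of the brightest 0.12. Groups did not overlap, with the line higher, for 5 sterol and 2 fatty acid members, against 14.8% of all clusters. Among the bright ones this was 6 of 26 members (23.1%) and 22.7% of clusters, a share near the background. These arrays of the non-silencing shRNA line are those used in the comparison above, so both results share them.
Tm7sf2 lay at 8.14, 9.05 and 9.36 in the non-silencing shRNA line, against 7.21, 6.89 and 7.05 in untreated cells (log2 difference 1.80 ± 0.23, adjusted p = 0.00112). Pmvk lay at 6.28, 7.30 and 7.36 in the non-silencing shRNA line, against 5.33, 5.40 and 5.07 in untreated cells (log2 difference 1.72 ± 0.21, adjusted p = 0.000979). For both genes every array of the line was above every untreated array. Ebp lay at 6.65, 7.22 and 7.40 in the non-silencing shRNA line, against 5.17, 5.29 and 5.98 in untreated cells, again with no overlap (log2 difference 1.61 ± 0.38, adjusted p = 0.0318). Mvd lay at 7.97, 9.15 and 9.46 in the non-silencing shRNA line, against 7.10, 7.26 and 8.05 in untreated cells, where array 1 of the line and untreated array 3 overlapped (log2 difference 1.39 ± 0.35, adjusted p = 0.0402). Dhcr7, at 1.14 ± 0.32, and Acat2, at 1.69 ± 0.48, did not overlap but missed the threshold (adjusted p = 0.0655 and 0.071). Me1 and Acaca lay on the other side, at -0.84 ± 0.35 and -0.35 ± 0.20 (adjusted p = 0.235 and 0.457). Without array 1 of the line 9 members were called, and without its array 2 or its array 3 only Tm7sf2 and Pmvk.

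The QKI shRNA line, set against the same untreated cells, had 0 members called at an adjusted p under 0.05 and 0 at an unadjusted p under 0.05, beside 2.04% and 11.5% of all clusters in either direction. The sterol median was -0.08 and that of the fatty acid arm -0.12. Tm7sf2, with 6.67, 6.70 and 6.60 in the QKI shRNA line against 7.21, 6.89 and 7.05 in untreated cells, had a difference of -0.39 ± 0.23 (adjusted p = 0.627) and groups that did not overlap. Hsd17b7, a ketosteroid reductase of the ring steps, had the lowest p of the members. It lay at 8.29, 8.05 and 6.59 in the QKI shRNA line and at 6.80, 6.84 and 7.31 in untreated cells (log2 difference 0.66 ± 0.36, adjusted p = 0.558). Arrays 1 and 2 of the line were above all untreated arrays and array 3 below them. With QKI shRNA line array 3 left out, 1 member was called and the sterol median was 0.19.

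**Figure D5:**
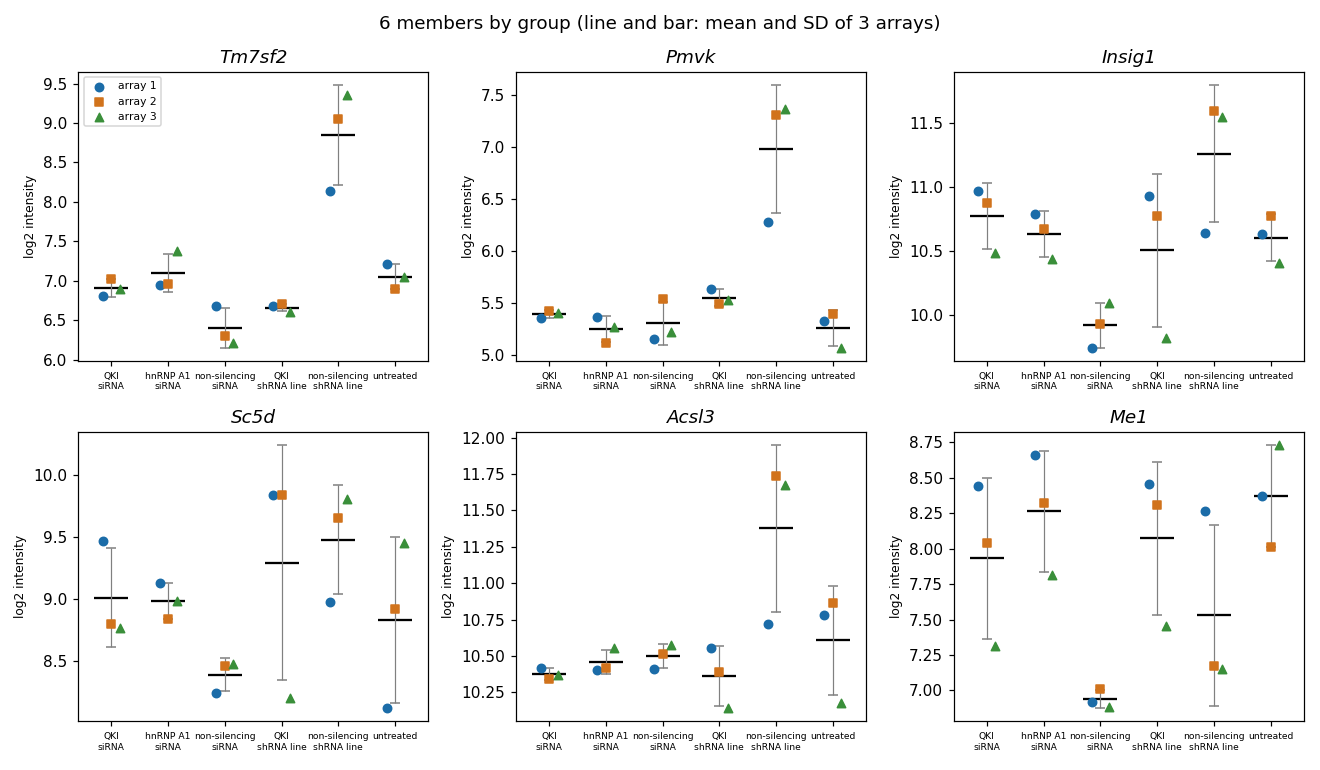
Log2 intensity of 6 members on each array by group, with the mean and SD of 3 arrays. Tm7sf2 and Pmvk are higher in the non-silencing shRNA line than on any other array, Sc5d is lowest on untreated array 1, followed by QKI shRNA line array 3 and the 3 arrays of non-silencing siRNA, and the 3 arrays of non-silencing siRNA lie below the other 15 for Me1.

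After transient QKI siRNA, all 19 sterol members lay above non-silencing siRNA, but limma called 0 of them, and 0 of the 18901 clusters (0%). The median log2 difference was 0.41 in the sterol arm and 0.03 in the fatty acid arm, against 0.04 over all clusters. At an unadjusted p under 0.05 there were 3 sterol and 3 fatty acid members, all higher, beside 5.01% of all clusters and 7.79% of the brightest in that direction. The groups did not overlap, with QKI siRNA higher, for 10 of 19 sterol members and 2 of 9 fatty acid members, against 7.41% of all clusters and 10.7% of the brightest.
Insig1 had the lowest p of the sterol arm. It lay at 10.97, 10.88 and 10.49 after QKI siRNA, against 9.74, 9.93 and 10.09 after non-silencing siRNA, with all 3 arrays higher (log2 difference 0.86 ± 0.27, adjusted p = 0.394). Me1 lay at 8.44, 8.04 and 7.31 after QKI siRNA, against 6.92, 7.01 and 6.89 after non-silencing siRNA (log2 difference 0.99 ± 0.35, adjusted p = 0.43). Its groups did not overlap, and array 3 of QKI siRNA was the nearest to the controls. Ebp differed by 0.82 ± 0.38, Elovl5, an elongase of long unsaturated chains, by 0.79 ± 0.29, and Tm7sf2 by 0.51 ± 0.23 (adjusted p = 0.547, 0.445 and 0.54). Acly, Fads2, Elovl6 and Acsl3 lay slightly below 0, between -0.14 and -0.09.

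After hnRNP A1 siRNA, set against the same non-silencing siRNA arrays, 18 of 19 sterol members lay above the control and 0 members were called, beside 1 cluster of all 18901 (0.00529%). The median was 0.59 in the sterol arm and 0.06 in the fatty acid arm. It was 0.00 over all clusters and 0.11 over the brightest. Groups did not overlap, with hnRNP A1 siRNA higher, for 15 of 19 sterol and 4 of 9 fatty acid members, against 8.69% of all clusters and 20.1% of the brightest. At an unadjusted p under 0.05 there were 3 sterol members and 2 fatty acid members, all higher, beside 4.6% of all clusters and 11.7% of the brightest in that direction.
Me1 lay at 8.66, 8.32 and 7.81 after hnRNP A1 siRNA, against 6.92, 7.01 and 6.89 after non-silencing siRNA, with no overlap (log2 difference 1.32 ± 0.35, adjusted p = 0.382). Tm7sf2 lay at 6.95, 6.96 and 7.38 after hnRNP A1 siRNA, against 6.68, 6.30 and 6.21 after non-silencing siRNA, also with no overlap (log2 difference 0.70 ± 0.23, adjusted p = 0.503). Dhcr7 differed by 0.77 ± 0.32, Insig1 by 0.71 ± 0.27 and Elovl5 by 0.78 ± 0.29 (adjusted p = 0.63, 0.588 and 0.575). The siRNAs against QKI and against hnRNP A1 share their control, so values on the same side of 0 are not separate observations of that side.

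That shared control was itself low. Non-silencing siRNA lay below untreated cells for 16 of 19 sterol and 8 of 9 fatty acid members. The medians were -0.49 and -0.33, against 0.08 over all clusters and -0.06 over the brightest. No member was called, beside 0.0794% of all clusters, and 5 sterol and 4 fatty acid members passed an unadjusted p under 0.05, all lower, beside 4.32% of all clusters and 10.5% of the brightest in that direction. Groups did not overlap, with non-silencing siRNA lower, for 11 of 19 sterol and 5 of 9 fatty acid members, against 6.97% of all clusters and 16.5% of the brightest.
Me1 lay at 6.92, 7.01 and 6.89 after non-silencing siRNA, against 8.37, 8.01 and 8.73 in untreated cells (log2 difference -1.43 ± 0.35, adjusted p = 0.13). Fads1, a desaturase of polyunsaturated fatty acids, lay at 9.38, 9.15 and 8.98 after non-silencing siRNA, against 9.90, 9.78 and 9.74 in untreated cells (log2 difference -0.64 ± 0.19, adjusted p = 0.22). Neither gene had overlapping groups. Acat2 differed by -1.20 ± 0.48, Cyp51, the lanosterol demethylase, by -0.80 ± 0.30, and Insig1 by -0.69 ± 0.27 (adjusted p = 0.397, 0.367 and 0.397). Pmvk, Srebf1, Scap and Acly lay at or slightly above 0, between 0.03 and 0.09.

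Set against untreated cells instead, QKI siRNA had 0 members called, beside 0.46% of all clusters, and 2 members at an unadjusted p under 0.05, beside 17.1%. The sterol median was 0.02 with 10 of 19 members above 0, and the median of the fatty acid arm was -0.23 with 1 of 9 above 0. Fads2, a desaturase of polyunsaturated fatty acids, lay at 10.57, 10.61 and 10.49 after QKI siRNA, against 11.09, 11.03 and 10.90 in untreated cells (log2 difference -0.46 ± 0.11, adjusted p = 0.0716). Elovl6, an elongase of saturated chains, lay at 8.56, 7.73 and 7.91 after QKI siRNA, against 8.78, 9.05 and 9.08 in untreated cells (log2 difference -0.90 ± 0.36, adjusted p = 0.233). In both genes all 3 arrays after siRNA were below all untreated arrays.
The siRNA against hnRNP A1 had likewise 0 members called against untreated cells, beside 0.296% of all clusters, with 4 members at an unadjusted p under 0.05, beside 12.5%. Its medians were 0.03 in the sterol arm and -0.15 in the fatty acid arm. Elovl6 lay at 7.87, 7.56 and 8.21 after hnRNP A1 siRNA, against the same untreated arrays (log2 difference -1.09 ± 0.36, adjusted p = 0.188). Scap lay at 7.18, 6.82 and 7.15 after hnRNP A1 siRNA, against 6.67, 6.52 and 6.92 in untreated cells, with overlap (log2 difference 0.35 ± 0.15, adjusted p = 0.337). Non-silencing siRNA put Elovl6 at 7.53, 8.56 and 8.44, so that all arrays of the 3 siRNA groups lay below all untreated arrays for this gene.

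The differences for QKI siRNA and for the line labelled QKI shRNA, each from its own control, were compared directly, as the difference after siRNA minus the difference in the shRNA lines, which share no arrays. For 7 members, all sterol, this difference of effects was positive and passed the test: Tm7sf2, Pmvk, Ebp, Fdft1, Insig1, Acat2 and Dhcr7. The background of clusters called in that direction was 3.42%, and 8.87% among the 4726 brightest, beside 6 of the 26 bright members (23.1%). The median over sterol members was 1.32 and over fatty acid members 0.59, against 0.04 over all clusters and 0.19 over the brightest. Tm7sf2 had the largest value, 2.70 ± 0.33 (adjusted p = 0.000438), which combines 0.51 after siRNA with -2.19 in the shRNA lines. On the siRNA side, Tm7sf2 lay at 6.80, 7.03 and 6.89 after QKI siRNA and at 6.68, 6.30 and 6.21 after non-silencing siRNA, with no overlap. Pmvk, with a difference of effects of 1.52 ± 0.30 (adjusted p = 0.00997), lay at 5.36, 5.43 and 5.41 after QKI siRNA and at 5.16, 5.54 and 5.22 after non-silencing siRNA, where the groups overlapped. Ebp, with 2.48 ± 0.54 (adjusted p = 0.0163), lay at 6.83, 5.98 and 5.21 after QKI siRNA and at 4.95, 5.51 and 5.09 after non-silencing siRNA. Fdft1, with 1.42 ± 0.33 (adjusted p = 0.0236), lay at 10.21, 10.04 and 10.25 after QKI siRNA and between 9.82 and 10.01 after non-silencing siRNA. For Ebp the siRNA groups overlapped at array 3 of QKI siRNA, which was low, and for Fdft1 they stood narrowly apart. Insig1 had 1.61 ± 0.39 (adjusted p = 0.0266) from 0.86 and -0.76, neither of which was called by itself. Both effects contain their controls, and non-silencing siRNA lay below and the non-silencing shRNA line above untreated cells for most sterol members.

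Within genes, probe sets of the exon-level table of the same arrays mostly moved as their gene did. In the QKI shRNA line against the non-silencing shRNA line, 88.4% of the members' 389 probe sets had the sign of the gene-level difference, beside 73.6% over all genes. All probe sets pointed the same way for Tm7sf2 (11 of 11), Pmvk (7 of 7), Mvd (13 of 13), Fdft1 (8 of 8), Sqle (14 of 14), Dhcr7 (10 of 10), Acsl3 (17 of 17) and Acly (29 of 29). Acat2 rests on 2 probe sets, Ebp on 4 and Insig1 on 1. The share was 77.6% for QKI siRNA against non-silencing siRNA, beside 69.5% over all genes, and 80.2% for hnRNP A1 siRNA, beside 68.5%. For non-silencing siRNA against untreated cells it was 86.1%, beside 72.7%, and for the non-silencing shRNA line 86.4%, beside 70.4%. These are the same hybridisations, so that the shares describe agreement within a gene and are no replication. The shares over all genes were not matched for brightness, although 26 of the 28 members were among the brightest clusters, so nothing is read from the members' excess.

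Further genes of these pathways were counted from longer lists, whose counts stand beside the same backgrounds of 6.9% of all clusters and 17.6% of the brightest called lower. Of 23 further measured genes of sterol synthesis, transport, uptake and regulation, 5 fell (21.7%) and 1 rose in the QKI shRNA line against the non-silencing shRNA line, with a median of -0.18. Scarb1, a receptor for lipoprotein cholesterol, differed by -1.79 ± 0.25 (adjusted p = 0.000247), Npc2, a lysosomal cholesterol carrier, by -1.39 ± 0.16 (adjusted p = 5.53e-05), and Erg28, a scaffold of sterol enzymes, by -1.51 ± 0.19 (adjusted p = 1e-04). Ggps1, which makes geranylgeranyl diphosphate, and Mbtps2, a protease that releases SREBPs, were the others that fell, with log2 differences of -0.83 and -0.69, and Soat1, which esterifies cholesterol, rose by 0.93.
Of 29 further genes of fatty acid metabolism 8 fell (27.6%) and 0 rose, with a median of -0.48. They were Mid1ip1, a partner of acetyl-CoA carboxylase, at -1.78 ± 0.34, the ligases Acsl4 and Acsl6 at -1.39 ± 0.33 and -1.12 ± 0.13, the citrate carrier Slc25a1 at -0.998, Idh1 at -0.997, the acyltransferases Dgat1 and Gpam at -0.76 ± 0.13 and -0.74 ± 0.20, and the desaturase Scd2 at -0.39 ± 0.12 (adjusted p between 3.65e-05 and 0.0481).
Of 10 measured genes of myelin lipids, a list that does not part synthesis from breakdown, 4 fell (40%) and 0 rose. They were Ugt8, which makes galactosylceramide, at -1.74 ± 0.46, and Sgms1, Smpd1 and Galc at -0.66 ± 0.15, -0.82 ± 0.17 and -0.80 ± 0.11. The QKI shRNA line against untreated cells had 3 of the 10 lower, beside 1.25% of all clusters: Ugt8 at -2.27, Smpd1 at -0.72 and Galc at -0.65. In the non-silencing shRNA line against untreated cells, where 2.48% of all clusters and 5.86% of the brightest were called higher, 3 of the 23 sterol genes rose, Erg28 at 1.23 ± 0.19, Npc2 at 1.05 ± 0.16 and Nr1h2 at 0.66 ± 0.15, and 1 fell, Apoe at -1.88 ± 0.49. Of the 29 fatty acid genes 4 rose there and 0 fell, and of the myelin lipid genes 0 were called. In the comparisons of QKI siRNA and hnRNP A1 siRNA with non-silencing siRNA 0 genes of these 3 lists were called.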

How the data were processed

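RNA of 18 samples was hybridised to 1 array each, with gene-level and exon-level values for each array. Both tables hold the authors' deposited log2 intensities. The submitters' processing notes name RMA and Partek; versions and the arrays' genome build were not given in the sources used here. Gene symbols came from the platform annotation, updated through RefSeq (GRCr8). Of 18901 clusters 13327 had 1 symbol, 620 several and 4954 none. Limma version 3.58.1 in R version 4.3.3 fitted 1 mean per group over all 18 arrays, with two-sided moderated tests adjusted by Benjamini-Hochberg over all clusters and called at an adjusted p under 0.05. A value after ± is the moderated standard error of a difference (12 residual and 3.57 prior degrees of freedom), with 3 arrays per group. The fit was tested on simulated data. Each list is described by its counts and median. The number of arrays limits precision, and neither detection calls nor scan dates entered the fit.

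Members, lists and alternatives were chosen with earlier results of these data known. Each called member is named. Values on every array are given for up to 8 called members per arm for the stable QKI line, up to 4 elsewhere, or the 2 of lowest p where none was called. Replicate numbers come from the titles. Between the stable lines, deviations from the group means over all clusters correlated at 0.25, 0.14 and 0.15 for the same number, and pairs by number were described there only. In the other comparisons at least 1 number correlated at under 0.1. Between the QKI shRNA line and untreated cells the same numbers correlated at -0.32, -0.13 and -0.51, and different numbers at up to 0.41, 0.38 and 0.485. The numbers are thus not known to mark arrays handled together.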

Additional observations from a re-analysis of the deposited data

Results flagged for a closer look

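In 7 sterol members the difference between QKI siRNA and its control was not the same as that between the line labelled QKI shRNA and its control, by limma's test of the difference of effects. Qki itself was not called lower in that line, and the controls lay on opposite sides of untreated cells for most sterol members. The difference, siRNA minus shRNA, was 2.70 for Tm7sf2, 2.51 for Acat2, 2.48 for Ebp and 1.64 for Dhcr7. It was 1.61 for Insig1, 1.52 for Pmvk and 1.42 for Fdft1. All 7 lay above their control after siRNA and below it in the shRNA line. The adjusted p ranged from 0.000438 for Tm7sf2 to 0.0493 for Dhcr7. Over 28 alternatives Tm7sf2, Pmvk and Ebp passed each time, Fdft1 in 23, Insig1 in 20, Acat2 in 10 and Dhcr7 in 6.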

How the results depend on the processing

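No called result changed sign under the 30 settings. With array weights the number of members called was 7 for QKI siRNA (0 without weights), 18 for the QKI shRNA line against its control line (10), 7 for hnRNP A1 siRNA (0), 8 for non-silencing siRNA (0), 21 for the non-silencing shRNA line (4) and 19 for the difference of effects (7). Against untreated cells they gave 8 for QKI siRNA, 5 for the QKI shRNA line and 4 for hnRNP A1 siRNA, each in place of 0. Quantile normalization gave 6 for the QKI shRNA line, 2 for the non-silencing shRNA line and 4 for the difference of effects, and median centring 2 for the non-silencing shRNA line. With only the arrays compared, the counts were 3 for the QKI shRNA line, 1 for non-silencing siRNA and 4 for the difference of effects, and with the 6 arrays and a replicate block 3 for the QKI shRNA line. In the fit of 18 arrays the block gave 9 for the QKI shRNA line, 3 for the non-silencing shRNA line and 6 for the difference of effects, where Mvd, Mvd and Dhcr7 were the calls lost, and 0 in the others. Only between the shRNA lines are pairs by number described, and there each QKI shRNA line array correlated best with its own number, though weakly. Without untreated array 3 and QKI shRNA line array 3, the counts were 6 for the QKI shRNA line and 9 for the non-silencing shRNA line, and against untreated cells 2 for QKI siRNA, 3 for the QKI shRNA line and 1 for hnRNP A1 siRNA.

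Leaving out each array in turn gave 4 to 14 called members for the QKI shRNA line, 2 to 9 for the non-silencing shRNA line, 3 to 12 for the difference of effects, and 0 to 1 for QKI siRNA and for the QKI shRNA line against untreated cells. The QKI shRNA line had 4 without non-silencing shRNA line array 3 and 5 without its array 2. The non-silencing shRNA line had 9 without its array 1, and 2 without its array 2, its array 3 or untreated array 1 or 2. The difference of effects had 12 without non-silencing shRNA line array 1, 3 without its array 2 or 3 or without array 1 of QKI siRNA or of non-silencing siRNA, and 4 without array 2 of either. Against untreated cells QKI siRNA had 1 without untreated array 3, and the QKI shRNA line 1 without its own array 3. Among 944 values of single members 132 lost their call, 16 gained one and 0 turned round. The cause was not tested. Median centring shifts the median of all clusters by -0.12 for non-silencing siRNA and -0.16 for QKI siRNA against untreated cells.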

Other observations

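Genes outside the lipid pathways that came with these arrays also differed. In the QKI shRNA line against the non-silencing shRNA line, 2 of 7 measured markers of myelinating oligodendrocytes fell. Of all clusters 6.9% were called lower there and 3.38% higher, and of the brightest 17.6% and 6.07%. The 4 of the 7 myelin markers that lay above 0 were those close to the array medians. The 2 that fell, the myelin genes Mbp and Cnp, differed by -4.24 ± 0.70 and -2.71 ± 0.34 (adjusted p = 0.000919 and 8.92e-05). Of 8 measured lineage markers 1 fell and 0 rose, the transcription factor Olig1 at -1.26 ± 0.28 (adjusted p = 0.00717). The astrocyte markers Gfap and Slc1a3 rose by 2.31 and 1.42, and S100b differed by -3.68 ± 0.27, so that 2 of 6 measured astrocyte markers rose and 1 fell. Set against untreated cells, 0 astrocyte markers rose in the QKI shRNA line and 1 fell, S100b at -2.13. The non-silencing shRNA line itself had Slc1a3 at -1.30 and S100b at 1.56 against untreated cells, both called. Of the 7 myelin markers 4 fell in the QKI shRNA line against untreated cells, beside 1.25% of all clusters called lower. They were Mbp, Mag, Cnp and Mog at -3.815, -3.12, -2.16 and -0.92. In the non-silencing shRNA line 2 fell against untreated cells, Mag at -1.81 and Mog at -1.13, beside 0.783% of all clusters. Of 18 stress response genes 1 fell in the QKI shRNA line against the non-silencing shRNA line (5.56%), beside 6.9% of all clusters. It was Sdf2l1, a chaperone partner in the endoplasmic reticulum, at -3.11 ± 0.29 (adjusted p = 8.71e-06). Against untreated cells Sdf2l1 was called lower in the QKI shRNA line, at -1.81, and higher in the non-silencing shRNA line, at 1.30. Of 15 proliferation genes 2 rose in the QKI shRNA line against the non-silencing shRNA line, beside 3.38% of all clusters. They were Mki67 and Cenpf, by 1.22 and 1.52, and 4 of the 15 lay below 0. Set against untreated cells the same genes were the 2 of 15 that fell in the non-silencing shRNA line, beside 0.783% of all clusters. Their log2 differences were -1.64 and -1.51, and 5 of the 15 lay above 0, with a median of -0.12. Mki67 and Cenpf were also the 2 that fell after non-silencing siRNA, with -1.97 and -2.05, beside 0.0476% of all clusters. There all 15 lay below 0. Against the same untreated arrays 2 of the 15 fell after QKI siRNA and 2 after hnRNP A1 siRNA, beside 0.265% and 0.0952% of all clusters. Mki67 and Cenpf were again the 2 that fell, with -2.53 and -2.40 after QKI siRNA and -2.76 and -2.64 after hnRNP A1 siRNA. The mean of the 15 genes after either siRNA overlapped that of untreated cells. Untreated array 3 was the highest of the 18 for this mean, at 1.33, and values without it are not given for these genes.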
